A study of Mus musculus with 4 samples.

Results

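Cells from stroke cortex of mice given an antibody against VLA4 were set directly against cells from stroke cortex of mice given an antibody against VCAM1, with no isotype library as a common denominator. Members were all cells of these 2 libraries that held 500 or more UMIs and 200 or more genes, with no more than 10% of UMIs from mitochondrial genes, where a UMI is a molecular tag that counts 1 captured transcript. That rule gave 11053 cells, 4720 with anti-VCAM1 and 6333 with anti-VLA4, of 15434 cells that passed it in all 4 libraries of the series. Removing marked doublets left 10866 of them, 4657 and 6209. The mice were male C57BL/6N, aged 10 months. Stroke was a distal occlusion of the middle cerebral artery (dMCAO), and each antibody had been given for 10 weeks. The 2 libraries that serve here only as levels were stroke with an isotype control antibody (the isotype stroke library) and sham surgery with the same control (the sham library). Each library was 1 pool of 4 to 5 mice, taken from the infarct core and about 2 mm of cortex around it, stained for CD31 (endothelial) and CD45 (leukocyte), and loaded for 10000 cells on a 10x Genomics 3' assay. The stained fractions that were collected are not given in the sources used here, so every share below follows the sort as well as the tissue. With 1 library per antibody there is no replicate check: a difference is one between these 2 libraries, handling of the pools and the antibody cannot be told apart, and each 95% interval in parentheses covers counting error only.

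VCAM1 is an adhesion molecule that inflamed endothelium puts on its surface. VLA4 is the integrin of leukocytes that binds it, a pair of the Itga4 and Itgb1 products, and the contact slows rolling leukocytes so that they can cross into tissue. The antibodies therefore take the same contact from opposite sides, the vessel wall and the leukocyte. VLA4 also binds fibronectin, and some resident macrophages and mural cells carry VCAM1, so the 2 blockades need not reach the same cells.

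Depth was similar in the 2 blockade libraries. The kept cells held 24387573 UMIs with anti-VCAM1 and 33389282 with anti-VLA4, with medians of 4515 and 4719 UMIs and 2079 and 2138 genes per cell. The isotype libraries were smaller, with 1514 (sham) and 2832 (stroke) cells and 9857631 and 16805668 UMIs. Only 7 barcodes were shared between the 2 blockade libraries. Haemoglobin transcripts stood at 2130 CPM with anti-VCAM1 and 2388 with anti-VLA4 (CPM is the UMI count scaled to a common total), against 2229 in the isotype stroke library and 82.8 in the sham library. Classes were named from marker genes and carry the ending -like. The markers bore the names out in the 2 largest classes, less so in others. The 12 endothelial markers summed to 23009 CPM with anti-VCAM1 in endothelial-like cells against 99.8 CPM in microglia-like cells. In pericyte-like cells, however, they summed to 16415 CPM with anti-VCAM1 and 16390 with anti-VLA4, above the 10 pericyte markers at 10347 and 11421 CPM, and 38 of 127 and 66 of 207 cells kept the class name by their own markers. The 11 microglia markers in border-macrophage-like cells summed to 4348 and 2824 CPM and the 10 border macrophage markers to 4278 and 5377 CPM.

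Both blockade libraries had nearly the same make-up, and T cells were the class that differed most among the 5 classes that held 50 or more cells in both libraries. Of kept cells, 36.4% were endothelial-like in the sham library, 23.1% in the isotype stroke library, 52.2% with anti-VCAM1 and 50.5% with anti-VLA4. The odds ratio of anti-VLA4 over anti-VCAM1 was 0.93 (0.86 to 1.01), so the counting interval reached 1. Microglia-like cells, the resident macrophages of brain tissue, were 46.2%, 52.9%, 39.1% and 39.8% in the same order, with an odds ratio of 1.03 (0.95 to 1.11). Both blockade libraries thus held more endothelial-like and fewer microglia-like cells than either isotype library, while they lay close to each other.

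T-cell-like cells made up 4.89% of kept cells in the sham library, 8.79% in the isotype stroke library, 2.36% with anti-VCAM1 and 3.25% with anti-VLA4. That was 110 of 4657 cells (1.95% to 2.84%) against 202 of 6209 (2.83% to 3.73%). The odds ratio was 1.39 (1.09 to 1.78) over kept cells and 1.36 (1.06 to 1.74) over the named leukocytes, of which T cells were 5.39% and 7.17%. Both shares were below those of the 2 isotype libraries, with the anti-VLA4 library the higher of the pair. Border-macrophage-like cells, the macrophages of vessel sheaths and meninges, made up 1.20% and 1.29%, with an odds ratio of 1.07 (0.75 to 1.54). They were 6.87% in the sham library and 6.25% in the isotype stroke library. A share below both isotype libraries was thus not particular to T cells. Pericyte-like cells, the contractile cells wrapped around capillaries, made up 2.73% and 3.33%, with an odds ratio of 1.23 (0.98 to 1.55). They were fewer in the sham library (0.661%) and the isotype stroke library (0.565%). B-cell-like cells numbered 29 (0.623%) and 39 (0.628%), dendritic-like cells 23 (0.494%) and 19 (0.306%), and astrocyte-like cells 30 (0.644%) and 44 (0.709%), each with an interval of the odds ratio that reached across 1. In the sham and isotype stroke libraries B-cell-like cells were 0.991% and 3.07% and dendritic-like cells 1.98% and 2.54%, also above both blockade libraries. Astrocyte-like cells were 0.330% and 0.812% there.

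The smallest populations gave the widest ratios. One cluster led by S100a8 and S100a9, alarmins of neutrophils and monocytes, stayed unnamed because only 2 of the 9 neutrophil markers, its best-scoring list, were detected in it, beside 6 monocyte markers. It held 28 cells (0.601%) with anti-VCAM1 and 8 (0.129%) with anti-VLA4, an odds ratio of 0.21 (0.08 to 0.48), beside 1.45% in the sham library and 1.17% in the isotype stroke library. At a finer clustering this group separated into monocyte-like cells (18 and 4) and neutrophil-like cells (10 and 4). Plasma-cell-like cells, which secrete antibody, numbered 0 of 4657 with anti-VCAM1 and 6 of 6209 (0.0966%) with anti-VLA4. The count of 0 allows a share of up to 0.0644%, or 0.0792% by the exact interval. The interval of the odds ratio began at 0.88 and had no upper end, so it reached across 1. Igkc, an antibody light chain, gave 3 UMIs in endothelial-like cells with anti-VCAM1 and 210 with anti-VLA4, and 2 and 149 UMIs in microglia-like cells. B-cell-like cells also carried it, at 5512 and 6403 CPM. The source of the UMIs in endothelial-like and microglia-like cells was not tested.

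**Figure D1:**
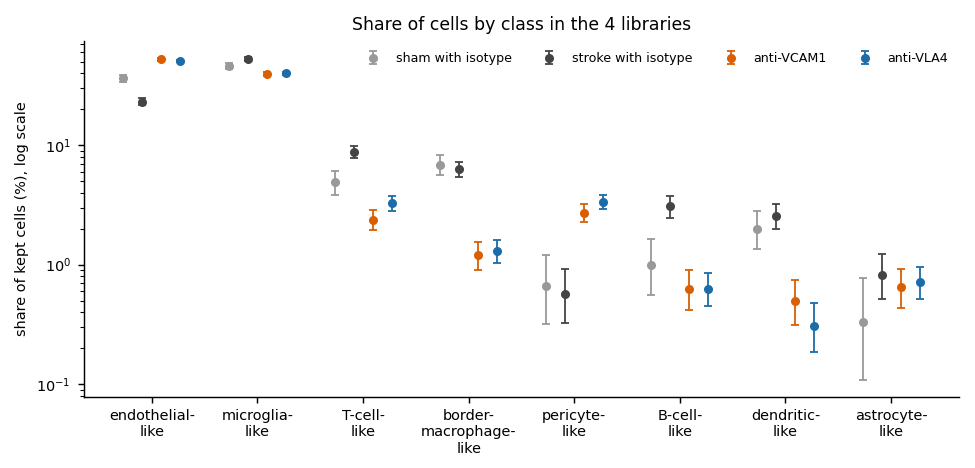
Share of kept cells (%, log axis) in 8 classes for the 4 libraries, with exact 95% binomial intervals that cover counting error only. The anti-VCAM1 and anti-VLA4 points lie close together in endothelial-like cells (52.2% and 50.5%) and microglia-like cells (39.1% and 39.8%), and further apart in T-cell-like cells (2.36% and 3.25%).

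Expression was then compared class by class, on UMIs summed over the cells of a class and scaled to CPM. The log2 ratio is anti-VLA4 over anti-VCAM1 with 1 CPM added to each, so a positive value means higher with anti-VLA4, and a gene is counted as past the threshold at 1.5-fold. Genes with at least 100 UMIs over the 2 libraries were measurable. In endothelial-like cells (2433 and 3134 cells, 11809335 and 16450295 UMIs) 16 of 10365 measurable genes, or 0.154%, were past 1.5-fold higher and 10, or 0.0965%, past it lower. In microglia-like cells (1821 and 2470 cells, 10089836 and 13412569 UMIs) 37 of 10340, or 0.358%, were past it higher and 60, or 0.58%, lower. The median ratio over all measurable genes was -0.005 and 0.02, with an SD across genes of 0.148 and 0.181. Most transcripts therefore stood at nearly the same level under both antibodies in these 2 classes. Among genes at 50 CPM or more in either library, 2 of 3814 passed the threshold in endothelial-like cells, Ankrd37 and H2-Q7, both higher with anti-VLA4. In microglia-like cells 20 of 3751 did, 5 higher and 15 lower. The 5 were 4 heat-shock genes (Hspa1a, Hspa1b, Hsph1 and Hsp90aa1) and Cd74, and the 15 included Tnf, Ccl2, Ccl3, Ccl4, Nfkbia, Nfkbiz, Ier2, Ier3 and Egr1.

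**Figure D2:**
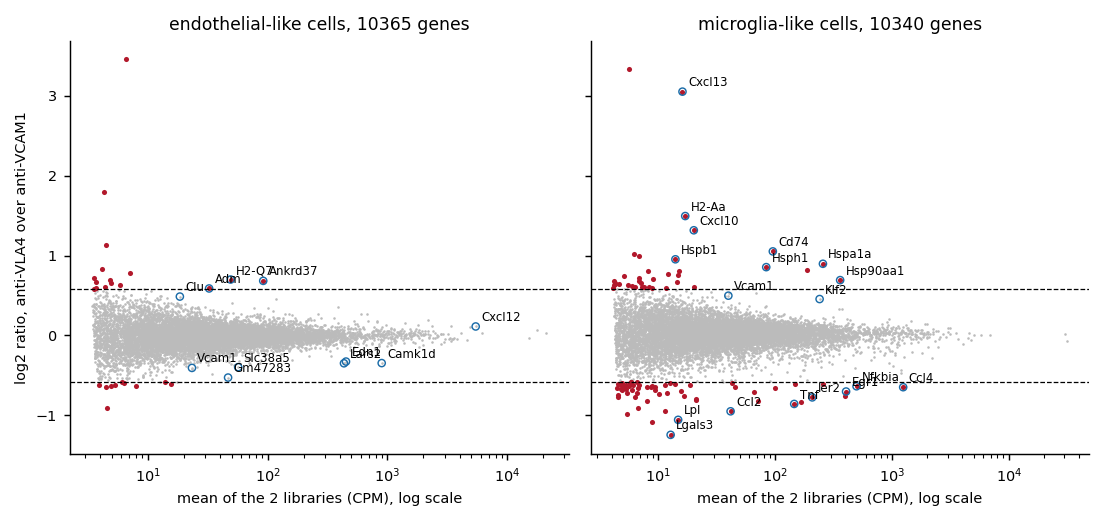
Log2 ratio of anti-VLA4 over anti-VCAM1 against the mean level (CPM, log axis), 1 point per measurable gene, in endothelial-like cells (10365 genes) and microglia-like cells (10340 genes). Dashed lines mark 1.5-fold. Among well measured genes the endothelial-like cloud stays inside the lines except for Ankrd37 and H2-Q7, while heat-shock genes lie above and Tnf, Ccl3 and Ccl4 below in microglia-like cells.

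Heat-shock genes mostly stood higher with anti-VLA4 than with anti-VCAM1 in microglia-like cells. Their products are chaperones that hold and refold damaged proteins, and heat-shock factor 1 switches many of them on within minutes of stress, tissue dissociation included. Of 13 measurable genes of the list, 5 were past 1.5-fold higher and none lower, against 0.358% of all genes past the threshold higher. The median ratio was 0.37, against 0.02 over all genes. Above 0 lay 12 of the list, against 5779 of all 10340 genes. Hspa1a, the inducible Hsp70, stood at 146 CPM in the sham library, 262 in the isotype stroke library, 179 with anti-VCAM1 and 334 with anti-VLA4, a log2 ratio of 0.90 (0.82 to 0.98). The anti-VLA4 library was thus the highest of the 4, and the anti-VCAM1 library lay between the 2 isotype libraries. Hspa1a and Hspa1b are near-identical copies between which counting can split or drop reads, so their separate levels are uncertain. Hspa1b stood at 72.4 CPM in the sham library, 186 in the isotype stroke library, 134 with anti-VCAM1 and 239 with anti-VLA4, a ratio of 0.82 (0.74 to 0.92).

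Among chaperones with no such copy, Hsph1, Hsp90aa1 and Hspb1 were also highest with anti-VLA4. For Hsph1 and Hspb1 the isotype stroke library was close to it. Hsph1, a nucleotide exchange factor of Hsp70, stood at 53.9 CPM in the sham library, 100.1 in the isotype stroke library, 59.5 with anti-VCAM1 and 108 with anti-VLA4, a ratio of 0.86 (0.73 to 1.01). Hsp90aa1, the inducible Hsp90, stood at 291 CPM in the sham library, 409 in the isotype stroke library, 275 with anti-VCAM1 and 446 with anti-VLA4, a ratio of 0.69 (0.63 to 0.76). Hspb1, a small heat-shock protein of low level here, stood at 4.23 CPM in the sham library, 16.6 in the isotype stroke library, 9.22 with anti-VCAM1 and 18.8 with anti-VLA4, a ratio of 0.95 (0.68 to 1.39). These 5 genes, Hspa1a, Hspa1b, Hsph1, Hsp90aa1 and Hspb1, were the ones past 1.5-fold. In each of them the isotype stroke library was above anti-VCAM1 and the sham library, and for Hsp90aa1 anti-VCAM1 was the lowest of the 4. The co-chaperones Dnajb1 and Dnaja1 had ratios of 0.37 and 0.33, Bag3 0.53, and constitutive Hspa8 0.16. Hspa5, the chaperone of the endoplasmic reticulum, which another stress pathway controls, was the member below 0, at 541 CPM with anti-VCAM1 and 473 with anti-VLA4, a ratio of -0.19 (-0.25 to -0.14).

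The share of microglia-like cells with an Hspa1a UMI was 22.0% with anti-VCAM1 and 37.4% with anti-VLA4. After thinning each cell to 1000 UMIs it was 11.2% and 19.3%, beside 10.1% in the sham library and 17.0% in the isotype stroke library. The difference was therefore spread over many cells rather than a few, and the ratio of Hspa1a stayed between 0.85 and 1.02 over 25 alternative settings. In endothelial-like cells the same 13 genes had a median ratio of 0.06 with none past the threshold, and Hspa1a stood at 227 CPM in the sham library, 164 in the isotype stroke library, 237 with anti-VCAM1 and 287 with anti-VLA4, a ratio of 0.27 (0.21 to 0.34). Whether the 2 classes differ in this was not tested.

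The sequences before the start sites of these genes are shown because the list has a textbook regulator. Heat-shock factor 1 binds runs of the unit GAA in alternating orientation, and the search was for 1 pair of units facing each other, GAANNTTC or TTCNNGAA, in the 250 bases before each start (both letter strings read the same on either strand). This pair was chosen after a search for runs of 3 units had found only Hspd1 and Hspe1 in the list. Of the 13 list genes, 10 were in the RefSeq promoter table (GRCm38.p6) and 7 of these held a pair: Hspa1a, Hspa1b, Hspb1, Hsph1, Dnaja1, Hspd1 and Hspe1. Counted by window, 8 of 15 windows of the list held one, against 4218 of 32851 windows of the same length in all, or 12.8%. Those 8 are not separate stretches. Both windows of Hsph1 hold the same pair, Hspd1 and Hspe1 share their pairs, and Hspa1a and Hspa1b are near-identical. Counted by gene, 3932 of 27025 held one, so a pair by itself is common. Hspd1 and Hspe1, with the longer run, had microglial ratios of 0.25 and 0.11. The stretches shown are those of the genes past 1.5-fold that were in that table. For contrast, that of Hspe1 is added, whose stretch on the other strand is also that of Hspd1. Hsp90aa1, also past 1.5-fold, was absent from the table, as were Hspa8 and Hsp90ab1, so these genes were not searched. Each stretch below has 30 bases, 5' to 3' on the gene's strand, with 1 matched pair in capitals. In Hspe1 further matched pairs, TTCTAGAA and TTCCGGAA, overlap that pair on either side and are otherwise left in lower case.
Hspa1a, chr17:34972242-34972271, minus strand: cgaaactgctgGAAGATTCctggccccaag
Hspa1b, chr17:34959324-34959353, minus strand: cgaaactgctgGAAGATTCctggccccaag
Hspb1, chr5:135887791-135887820, plus strand: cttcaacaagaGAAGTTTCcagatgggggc
Hspb1, chr5:135887811-135887840, plus strand: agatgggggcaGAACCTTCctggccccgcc
Hsph1, chr5:149636351-149636380, minus strand: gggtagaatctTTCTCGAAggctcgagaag
Hspe1, chr1:55088053-55088082, plus strand: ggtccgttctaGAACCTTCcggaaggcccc
The pair lay 104 to 97 bases before the start in both Hspa1a and Hspa1b, whose upstream windows were identical at 247 of 250 bases. In Hspb1 the 2 pairs lay 117 to 110 and 97 to 90 bases before the start. In Hsph1 the pair lay 33 to 26 bases before 1 annotated start and 54 to 47 before the other. A match describes letters in the reference and shows no binding in these cells.

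Inflammatory signalling genes stood on the other side, lower with anti-VLA4 than with anti-VCAM1. Of 15 measurable genes of the cytokine and NF-kappaB list, 4 were past 1.5-fold lower and none higher, against 0.58% of all genes past the threshold lower. The median ratio was -0.35. Below 0 lay 14 of the list, against 4561 of all 10340 genes. Tnf, the tumour necrosis factor cytokine, stood at 167 CPM in the sham library, 233 in the isotype stroke library, 188 with anti-VCAM1 and 103 with anti-VLA4, a ratio of -0.86 (-0.97 to -0.76). Anti-VLA4 was the lowest library of the 4 and anti-VCAM1 lay between the sham and isotype stroke libraries. The share of microglia-like cells with a Tnf UMI was 25.5% with anti-VCAM1 and 18.4% with anti-VLA4, or 11.0% and 6.79% after thinning to 1000 UMIs, beside 0.493% and 0.287% unthinned in endothelial-like cells. Nfkbia, the inhibitor that NF-kappaB itself induces, stood at 754 CPM in the sham library, 664 in the isotype stroke library, 606 with anti-VCAM1 and 389 with anti-VLA4, a ratio of -0.64 (-0.69 to -0.58). Nfkbiz, a nuclear member of the same inhibitor family, stood at 469 CPM in the sham library, 405 in the isotype stroke library, 308 with anti-VCAM1 and 202 with anti-VLA4, a ratio of -0.61 (-0.69 to -0.54). Gadd45b, a stress gene induced by NF-kappaB, was the other member past the threshold, at 21 CPM with anti-VCAM1 and 12 with anti-VLA4, a ratio of -0.76 (-1.11 to -0.51). For Tnf, Nfkbia and Nfkbiz the anti-VLA4 library was below all 3 others. Cd83, an activation marker, stood at 1369 CPM with anti-VCAM1 and 1013 with anti-VLA4, a ratio of -0.43 (-0.47 to -0.40) that did not reach the threshold, and the interleukins Il1a and Il1b had ratios of -0.21 and -0.23. Il6 was the member above 0, at 0.05.

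Chemokines, which draw leukocytes into tissue, were divided. Of 9 measurable genes 3 were past 1.5-fold lower and 3 higher, against 0.58% and 0.358% of all genes. Ccl3 stood at 469.6 CPM in the sham library, 552 in the isotype stroke library, 498 with anti-VCAM1 and 294 with anti-VLA4, a ratio of -0.76 (-0.82 to -0.70). Ccl4 stood at 1323 CPM in the sham library, 1623 in the isotype stroke library, 1525 with anti-VCAM1 and 973 with anti-VLA4, a ratio of -0.65 (-0.68 to -0.62). Ccl2, which recruits monocytes, stood at 74.3 CPM in the sham library, 51.8 in the isotype stroke library, 55.1 with anti-VCAM1 and 28 with anti-VLA4, a ratio of -0.95 (-1.17 to -0.78). All 3 were lowest with anti-VLA4. The 3 that were higher, Cxcl10, Cxcl13 and Ccl5, rested on few cells. Cxcl10, an interferon-induced attractant of T cells, stood at 11.1 CPM with anti-VCAM1 and 29.2 with anti-VLA4, a ratio of 1.32 (1.09 to 1.71), with UMIs in 23 and 31 cells, and 10 cells of each library held 86.6% and 90.0% of them. Cxcl13, an attractant of B cells, stood at 2.68 CPM with anti-VCAM1 and 29.5 with anti-VLA4, with UMIs in 7 and 16 cells, and its ratio of 3.05 became 0.54 without the 10 highest cells of each library.

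Immediate early genes, which cells switch on within minutes of a stimulus and also during dissociation, mostly lay below 0. Of 18 measurable genes 3 were past 1.5-fold lower and none higher, against 0.58% of all genes past the threshold lower. The median was -0.29, and 14 lay below 0, against 4561 of all 10340 genes. Egr1 stood at 1090 CPM in the sham library, 734 in the isotype stroke library, 502 with anti-VCAM1 and 308 with anti-VLA4, a ratio of -0.70 (-0.76 to -0.64). Ier2 stood at 415 CPM in the sham library, 295 in the isotype stroke library, 263 with anti-VCAM1 and 153 with anti-VLA4, a ratio of -0.78 (-0.86 to -0.70), and Ier3 at 215 CPM in the sham library, 208 in the isotype stroke library, 213 with anti-VCAM1 and 119.7 with anti-VLA4, a ratio of -0.83 (-0.93 to -0.74). In all 3 genes anti-VLA4 was the lowest library. The AP-1 genes Fos and Jun moved less, with ratios of -0.17 and -0.15. Klf2, a factor that restrains inflammatory genes, went the other way, at 203 CPM with anti-VCAM1 and 278 with anti-VLA4, a ratio of 0.46 (0.38 to 0.54) that did not reach the threshold. The Krüppel-like factor Klf10, induced by TGF-beta, stood at 55.1 CPM with anti-VCAM1 and 35 with anti-VLA4, a ratio of -0.64 (-0.84 to -0.48). Cited2, a transcriptional co-regulator that limits hypoxia signalling, stood at 122 CPM with anti-VCAM1 and 77.1 with anti-VLA4, a ratio of -0.65 (-0.78 to -0.54). The unnamed transcripts Gm17268 and G530011O06Rik had ratios of -0.83 and -0.70.

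The make-up of the microglia-like class differed between the libraries as well. Cluster 5, which had Il1a among its leading genes, held 22.4% of the class with anti-VCAM1 and 14.2% with anti-VLA4, an odds ratio of 0.57 (0.49 to 0.67). It held 40.0% in the sham library and 29.7% in the isotype stroke library. Cluster 2, led by Csmd3 and P2ry12, held 24.0% and 31.1%, an odds ratio of 1.43 (1.24 to 1.64). Within clusters the sign held for some genes and not for others. Tnf was below 0 in all 6, from -0.33 in cluster 5 to -2.32 in cluster 15, which held 31 and 49 cells. In cluster 1 Tnf stood at 258 and 122 CPM, and in cluster 5 at 229 and 182 CPM. Egr1 was also below 0 in all 6, from -0.13 in cluster 5 to -1.03 in cluster 7, and its interval reached 0 in cluster 15. Its level was highest in cluster 5, at 1007 and 919 CPM. Hspa1a was above 0 in all 6, from 0.69 in cluster 15 to 1.89 in cluster 11, and its interval reached below 0 in cluster 15 alone. In cluster 5 Hspa1a stood at 248 and 521 CPM, the largest values of the 6. In cluster 15, however, Hspa1b and Hsph1 lay at -0.56 (-2.91 to 1.64) and -0.06 (-1.72 to 1.64), and in cluster 11 Ccl2 lay at 0.48 (-0.19 to 1.20), intervals that reached 0. With the clusters given the same weights in both libraries, the median of the cytokine and NF-kappaB list went from -0.35 to -0.22, that of the immediate early list from -0.29 to -0.11, and that of the heat-shock list from 0.37 to 0.52. Under those weights Ier2 came to -0.47, Ccl3 to -0.57, Egr1 to -0.34, Ccl4 to -0.45 and Nfkbia to -0.41, all inside 1.5-fold, and 34 genes were past it lower in place of 60.

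**Figure D3:**
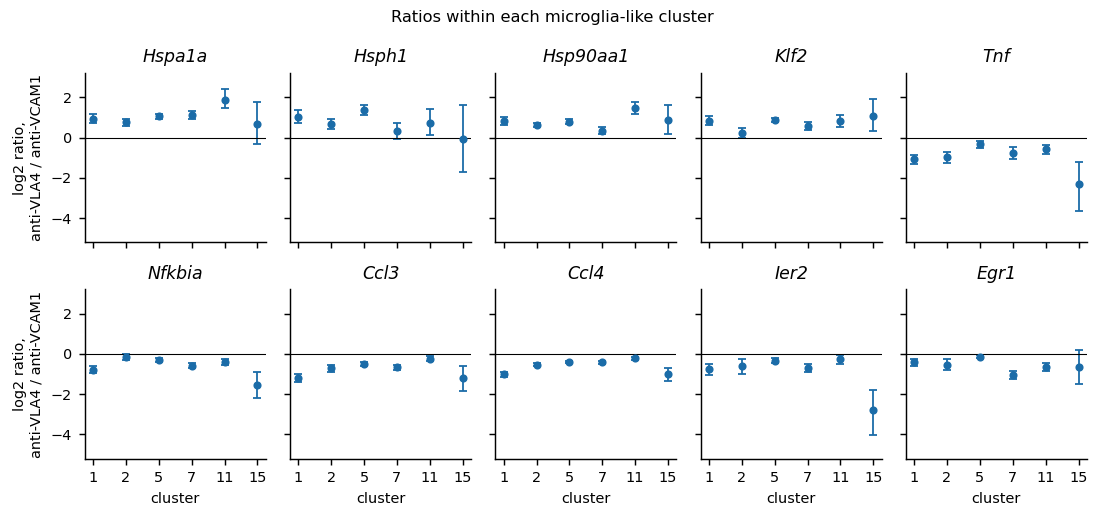
Log2 ratio of anti-VLA4 over anti-VCAM1 within each of the 6 microglia-like clusters (1, 2, 5, 7, 11 and 15), 1 panel per gene, with counting intervals. Hspa1a lies above 0 and Tnf below 0 in every cluster, while the size varies, for example from -0.33 in cluster 5 to -1.07 in cluster 1 for Tnf.

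MHC class II genes, which present antigen to CD4 T cells, had the highest median of the lists, and it depended on how cells were named. Of 7 measurable genes 4 were past 1.5-fold higher, against 0.358% of all genes, and the median was 0.60. Cd74, the invariant chain, stood at 104 CPM in the sham library, 85.9 in the isotype stroke library, 61.8 with anti-VCAM1 and 129 with anti-VLA4, a ratio of 1.05 (0.93 to 1.20), and H2-Aa at 29.6 CPM in the sham library, 17 in the isotype stroke library, 8.42 with anti-VCAM1 and 25.6 with anti-VLA4, a ratio of 1.5 (1.26 to 1.96). For Cd74, 10 cells of each library held 49% and 47.2% of the UMIs, and without them the ratio was 1.09. The gene stood at 42.3 CPM with anti-VCAM1 and 205 with anti-VLA4 in cluster 7 and at 181 and 632 CPM in cluster 11, while its interval reached 0 in clusters 1, 2 and 5. Under names given cell by cell from its own markers the ratio of Cd74 was 0.07, that of H2-Aa -0.06 and that of H2-Eb1 -0.26, so none of them was past 1.5-fold. After thinning every cell to 1000 UMIs the median of the list was -0.05. Border macrophage markers, whose cells carry Cd74 at high level, summed to 163 CPM with anti-VCAM1 and 181 with anti-VLA4 in this class, and their part in the result was not tested.

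The identity of the microglia was alike under both antibodies. None of 21 homeostatic genes passed the threshold (median 0.01, range -0.19 to 0.08), and P2ry12, the purine receptor that steers microglial processes, stood at 1818 CPM with anti-VCAM1 and 1756 with anti-VLA4. The lysosome list (17 genes, -0.05 to 0.06), complement (9 genes, -0.27 to 0.12), TREM2 and SYK signalling (13 genes, -0.10 to 0.17) and purine and phagocytic receptors (16 genes, -0.48 to 0.09) had no gene past it either. The interferon list had 1 of 28 past it higher, against 0.358% of all genes, and a median of 0.10. That gene was Ifit2, at 8.72 CPM with anti-VCAM1 and 15.5 with anti-VLA4. Of 24 disease-associated genes, which microglia induce near lesions and plaques, 3 were past it lower, against 0.58% of all genes: Lgals3 at 18.3 CPM with anti-VCAM1 and 7.16 with anti-VLA4, Lpl at 20.3 CPM with anti-VCAM1 and 9.25 with anti-VLA4 and Spp1 at 27.1 CPM with anti-VCAM1 and 15.2 with anti-VLA4. They were found in 39 and 40, 40 and 55 and 22 and 18 cells, and without the 10 highest cells of each library the ratio of Lpl was 0.07. Apoe, the abundant lipid carrier of that programme, stood at 453 CPM in the sham library, 1488 in the isotype stroke library, 1942 with anti-VCAM1 and 1664 with anti-VLA4, a ratio of -0.22 (-0.25 to -0.19). The list as a whole had a median of -0.02.

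**Figure D4:**
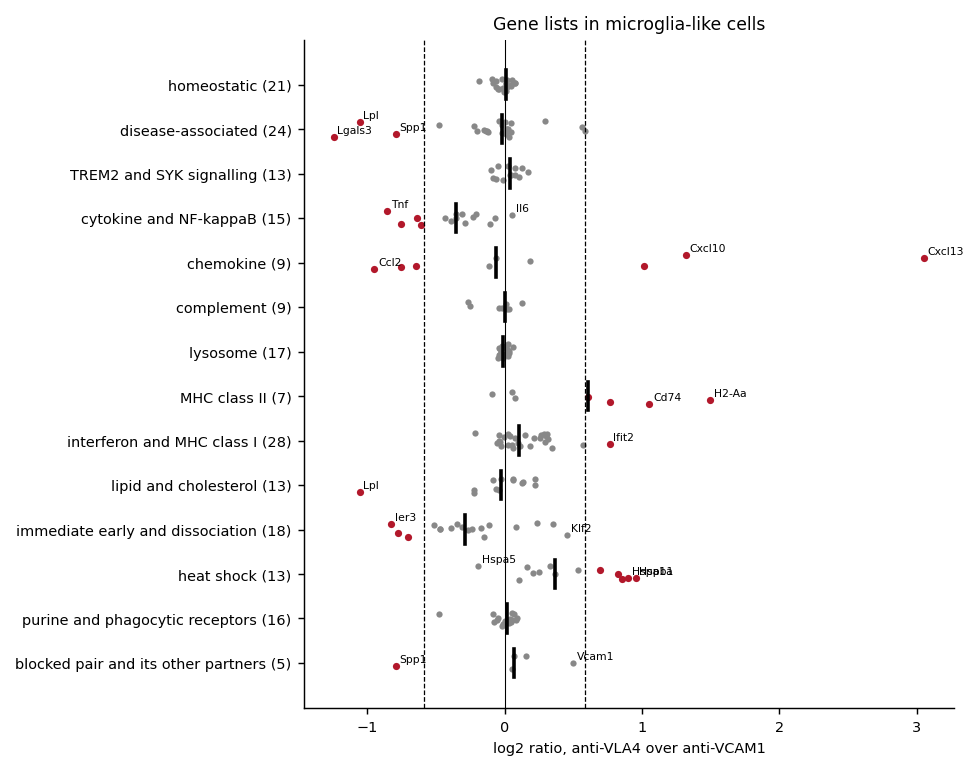
Log2 ratio of anti-VLA4 over anti-VCAM1 for each measurable gene of the lists in microglia-like cells, with the list median as a bar and the number of genes in brackets. The heat-shock genes lie to the right (median 0.37), the cytokine and NF-kappaB genes (median -0.35) and immediate early genes (median -0.29) to the left, and the homeostatic genes close to 0.

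Endothelial-like cells, the target side of anti-VCAM1, differed little. Vcam1 itself stood at 84.5 CPM in the sham library, 41.9 in the isotype stroke library, 26.8 with anti-VCAM1 and 19.9 with anti-VLA4, a ratio of -0.41 (-0.65 to -0.20) that did not reach 1.5-fold. Both blockade libraries were below both isotype libraries, and anti-VLA4 was the lowest. Within clusters 0, 3, 4 and 6 the ratio was -0.46, -0.65, -0.35 and -0.34, and of these only the interval of cluster 6 reached above 0. Cluster 12 gave -0.76 from 2 and 1 UMIs. In cluster 18, which held 14 and 17 of the cells and the highest level, the order was the other way, at 275 CPM with anti-VCAM1 and 446 with anti-VLA4, a ratio of 0.69 (-0.02 to 1.42). That cluster was 4.17% of the class in the sham library and 1.84% in the isotype stroke library. With anti-VCAM1 it was 0.575% (0.315% to 0.964%) and with anti-VLA4 0.542% (0.316% to 0.867%), intervals that overlapped. The part of this make-up in the levels was not tested. Few cells held the transcript: 67 and 77 cells had a UMI, or 2.75% and 2.46%, and 10 cells of each library held 57.3% and 50.6% of the UMIs. After thinning to 1000 UMIs 1.36% and 1.02% had one, beside 4.31% in the sham library and 1.78% in the isotype stroke library. In T-cell-like cells, which should lack Vcam1, 1.82% and 0.99% had a UMI. T-cell-like cells had median depths of 4703 and 3859 UMIs and endothelial-like cells 4074 and 4423. With each cell given equal weight the ratio was -0.15.

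The other adhesion genes were near 0. None of 14 measurable genes of the adhesion and activation list passed the threshold (median -0.06). Icam1, the ligand of leukocyte beta-2 integrins, stood at 19.1 CPM with anti-VCAM1 and 17.6 with anti-VLA4, Cd40 at 20.9 CPM with anti-VCAM1 and 18.8 with anti-VLA4 and the membrane chemokine Cx3cl1 at 40.6 CPM with anti-VCAM1 and 36.7 with anti-VLA4, with intervals that reached 0. No gene passed it among 14 of the junction and barrier list (median -0.04, range -0.12 to 0.06) or 17 blood-brain barrier transporters (median 0.00). The tight junction gene Cldn5 stood at 3269 CPM in the sham library, 2949 in the isotype stroke library, 3555 with anti-VCAM1 and 3449 with anti-VLA4, a ratio of -0.04 (-0.06 to -0.03), and the glucose transporter Slc2a1 at 1971 CPM with anti-VCAM1 and 1972 with anti-VLA4. Among transporters the amino acid carrier Slc38a5 stood at 64.7 CPM with anti-VCAM1 and 48.9 with anti-VLA4, a ratio of -0.40 (-0.55 to -0.26), and the lipoprotein receptor Lrp8 at 203 CPM with anti-VCAM1 and 235 with anti-VLA4, a ratio of 0.21 (0.14 to 0.29). The lists for Notch (11 genes), Wnt (16), TGF-beta and BMP (15), basement membrane (12) and caveolae (9) had no gene past it and medians between -0.03 and 0.03.

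The members of the endothelial lists past the threshold were 2 hypoxia targets and 1 class I gene, all higher, against 0.154% of all measurable genes past it higher. Most of the 16 higher and 10 lower genes lay outside these lists. Ankrd37, a target of hypoxia-inducible factor, stood at 60.3 CPM in the sham library, 54.9 in the isotype stroke library, 70.3 with anti-VCAM1 and 113 with anti-VLA4, a ratio of 0.68 (0.57 to 0.81). Adm, the vasodilator peptide adrenomedullin and also a hypoxia target, stood at 16.7 CPM in the sham library, 17.5 in the isotype stroke library, 25.7 with anti-VCAM1 and 39.2 with anti-VLA4, a ratio of 0.59 (0.41 to 0.81). Both were highest with anti-VLA4 and next highest with anti-VCAM1. The other 11 measurable genes of the hypoxia list stayed inside 1.5-fold (median of the 13, 0.09), with P4ha1, which hydroxylates collagen, at 74.2 CPM with anti-VCAM1 and 87.3 with anti-VLA4. H2-Q7, a class I gene of the H2-Q family whose close copies make its reads uncertain, stood at 54.4 CPM in the sham library, 63.2 in the isotype stroke library, 37.2 with anti-VCAM1 and 61 with anti-VLA4, a ratio of 0.70 (0.55 to 0.88). Here anti-VCAM1 was the lowest library and anti-VLA4 was near the isotype stroke library. It was the member past the threshold among 29 interferon and class I genes. Of these 26 lay above 0, against 5002 of all 10365 genes, and the median was 0.11. For 16 of them the interval lay above 0, and how many of all genes had such an interval was not counted. H2-K1, a classical class I gene, stood at 524 CPM in the sham library, 612 in the isotype stroke library, 545 with anti-VCAM1 and 658 with anti-VLA4, a ratio of 0.27 (0.23 to 0.32).

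Vessel-zone and growth genes filled in smaller ratios. In the arterial list (16 genes, none past the threshold) the vasoconstrictor peptide Edn1 stood at 492 CPM in the sham library, 425 in the isotype stroke library, 502 with anti-VCAM1 and 400.0 with anti-VLA4, a ratio of -0.33 (-0.38 to -0.28), the chaperone Clu at 15.2 CPM with anti-VCAM1 and 21.8 with anti-VLA4, a ratio of 0.49 (0.25 to 0.78), and the arterial marker Gkn3 at 126 CPM with anti-VCAM1 and 152 with anti-VLA4. In the VEGF and angiogenesis list (13 genes, 1 past it, Adm) the Tie2 ligand Angpt2 stood at 30.8 CPM with anti-VCAM1 and 38.8 with anti-VLA4, a ratio of 0.32 (0.15 to 0.52), and the VEGF co-receptor Nrp1 at 209 CPM with anti-VCAM1 and 245 with anti-VLA4, a ratio of 0.22 (0.15 to 0.30). Of the capillary list (11 genes) Cxcl12 stood at 5247 CPM with anti-VCAM1 and 5672 with anti-VLA4, and of the venous list (11 genes) Vwf at 147 CPM with anti-VCAM1 and 161 with anti-VLA4. Cdkn1a, a cell cycle inhibitor that glucocorticoids induce, stood at 455 CPM in the sham library, 528 in the isotype stroke library, 614 with anti-VCAM1 and 739 with anti-VLA4, a ratio of 0.27 (0.22 to 0.31). Among the lowest ratios of well measured genes were those of Gm47283 (-0.53 (-0.70 to -0.38)), Cirbp, a cold-induced RNA-binding protein (-0.36 (-0.52 to -0.21)), Eps8 (-0.36 (-0.49 to -0.23)), the mitochondrial leucyl-tRNA synthetase Lars2 (-0.35 (-0.40 to -0.30)) and Camk1d (-0.35 (-0.38 to -0.31)). Lars2 stood at 1099 CPM in the sham library, 857 in the isotype stroke library, 486 with anti-VCAM1 and 382 with anti-VLA4, and Camk1d, a calcium-dependent kinase, at 2992 CPM in the sham library, 2045 in the isotype stroke library, 1003 with anti-VCAM1 and 789 with anti-VLA4. Both were lower in the blockade libraries than in the isotype ones and lowest with anti-VLA4. The make-up of the class differed in these libraries too. In the same order, cluster 0 held 59.3%, 51.3%, 30.6% and 28.1% of it, and cluster 6 held 1.63%, 4.90%, 19.2% and 20.4%. The part of this make-up in the levels was not tested. Next among the lowest ratios came the neuronal leucine-rich repeat gene Lrrn3, the urokinase receptor Plaur and the tetraspanin Tspan4, at -0.34, -0.34 and -0.33. The highest after Ankrd37 were Gm10076, whose reads may be shared with gene copies (0.46 (0.36 to 0.57)), Gm15283 (0.41 (0.26 to 0.58)), Rsrp1 (0.35 (0.30 to 0.41)), Emp2 (0.35 (0.24 to 0.46)) and Dusp6, a phosphatase that ERK signalling induces (0.35 (0.23 to 0.48)).

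**Figure D5:**
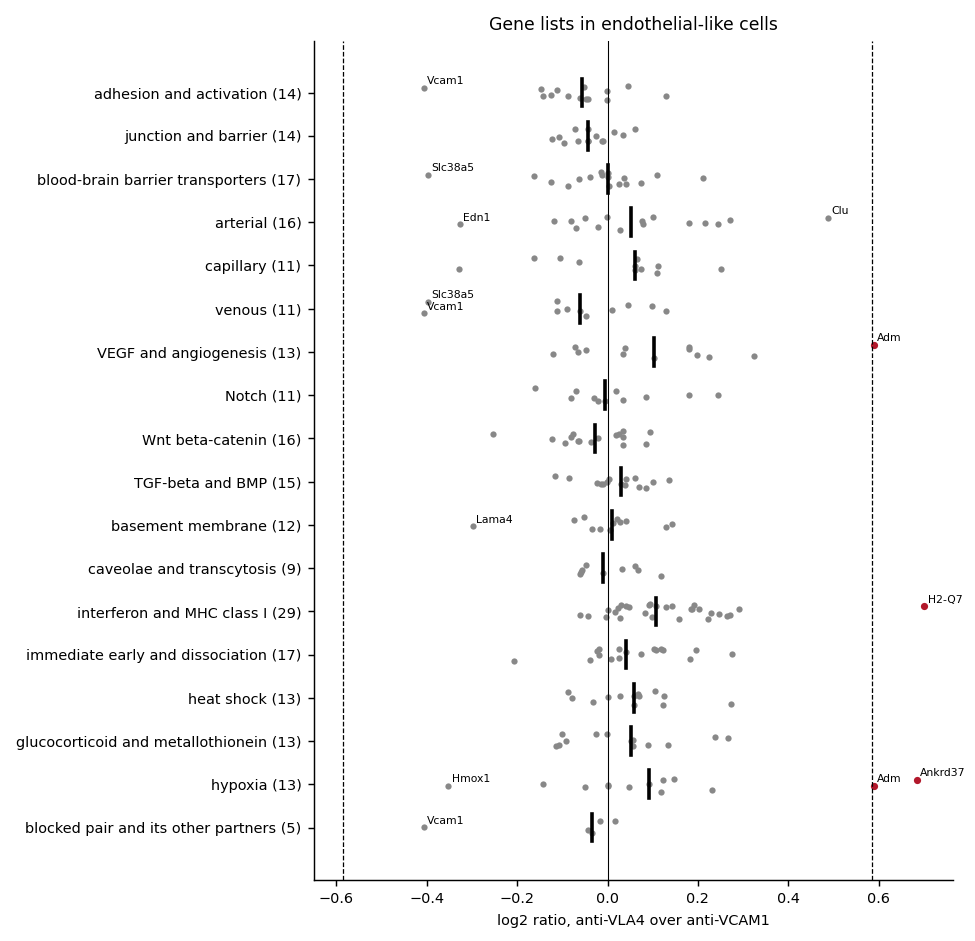
Log2 ratio of anti-VLA4 over anti-VCAM1 for each measurable gene of the lists in endothelial-like cells, with the list median as a bar and the number of genes in brackets. Medians lie between -0.06 and 0.11, and the points past 1.5-fold are Ankrd37, Adm and H2-Q7.

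T-cell-like cells, the class that carries most VLA4, were few (110 and 202 cells, 552391 and 867660 UMIs), and 57 of 2319 measurable genes, or 2.46%, were past 1.5-fold higher and 134, or 5.78%, lower. The class joined clusters 8 and 20, and cluster 20, with a median of 12239 UMIs per cell, held 8 of the 110 cells (7.27%) with anti-VCAM1 and 1 of the 202 (0.495%) with anti-VLA4. Itga4, the VLA4 alpha chain, stood at 372 CPM in the sham library, 567 in the isotype stroke library, 505 with anti-VCAM1 and 600.5 with anti-VLA4, a ratio of 0.25 (0.04 to 0.46), and Itgb1, its beta chain, at 594 CPM with anti-VCAM1 and 613 with anti-VLA4, a ratio of 0.05 (-0.15 to 0.25). A UMI of Itga4 was found in 66.4% and 67.3% of these cells, and the transcript of the target was not lower in the anti-VLA4 library. Itgb7, the beta chain of the gut-homing partner, stood at 154 CPM with anti-VCAM1 and 156 with anti-VLA4. The lineage list had none of 11 past the threshold and a median of 0.40, with the T cell receptor genes Trbc2 at 859.9 CPM with anti-VCAM1 and 1216 with anti-VLA4 and Cd3g at 854 CPM with anti-VCAM1 and 1166 with anti-VLA4. Of 15 cytotoxic genes 4 were past it higher and 2 lower. Gzma, a granzyme, gave 9 UMIs with anti-VCAM1 and 138 with anti-VLA4, in 4 and 3 cells, so its ratio of 3.21 came from 3 cells. Nkg7, a granule protein, stood at 963 CPM with anti-VCAM1 and 1376 with anti-VLA4, a ratio of 0.51 (0.37 to 0.66). The residency factor Tox stood at 682 CPM with anti-VCAM1 and 976 with anti-VLA4, the checkpoint receptor Pdcd1 at 116 CPM with anti-VCAM1 and 160.2 with anti-VLA4 and Cd69, which retains cells in tissue, at 156 CPM with anti-VCAM1 and 209.8 with anti-VLA4, all inside 1.5-fold. Il7r of long-lived T cells stood at 422 CPM with anti-VCAM1 and 590.1 with anti-VLA4, and Selplg, the selectin ligand, at 549 CPM with anti-VCAM1 and 395 with anti-VLA4.

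Several myeloid transcripts were among the lower genes. Ctsb, Plek, Tyrobp and Fcer1g, genes of macrophages and other myeloid cells, had ratios of -1.83, -1.70, -1.53 and -1.24. The 11 microglia markers summed to 1979 CPM with anti-VCAM1 and 456 with anti-VLA4 in this class, with all 11 detected in both, and the 12 endothelial markers to 243 and 492 CPM. Of the T-cell-like cells 9 and 2 were microglia-like on their own markers. With each cell named that way, 29 genes were past the threshold lower in place of 134, Ctsb came to 0.04, Fcer1g to 1.23 and the median of the lineage list to 0.19. The highest well measured genes were Hsph1 (97.8 and 189 CPM, 0.94 (0.50 to 1.42)), the orphan nuclear receptor Nr4a2 (194 and 316 CPM, 0.70 (0.38 to 1.04)), Ubxn1, the Hsp70 partner St13 (0.68 (0.33 to 1.05)) and Tuba1b (0.67 (0.24 to 1.12)). Hsph1 thus lay above 0 in T-cell-like as in microglia-like cells.

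Border-macrophage-like cells (56 and 80 cells, 400396 and 514440 UMIs) had 95 of 1588 measurable genes, or 5.98%, past 1.5-fold higher and 106, or 6.68%, lower. Of 8 resident scavenger genes 3 were past it higher and the median was 0.42, with Cd163, the haemoglobin scavenger, at 1.80, the chemokine Pf4 at 0.56 and the mannose receptor Mrc1 at 0.16. After thinning to 1000 UMIs that median was -0.11. None of 6 MHC class II genes passed it (median 0.32), and with the 2 libraries clustered alone the median was -0.06. Ccl7, a monocyte attractant, stood at 222 CPM with anti-VCAM1 and 558 with anti-VLA4, and the phospholipid carrier Pltp at 169.8 CPM with anti-VCAM1 and 435 with anti-VLA4. Lgals3 stood at 519 CPM with anti-VCAM1 and 85.5 with anti-VLA4 with UMIs in 13 and 14 cells, Plxdc2 at 674 CPM with anti-VCAM1 and 134 with anti-VLA4 and Gpr34, a receptor of microglia, at 399.6 CPM with anti-VCAM1 and 154 with anti-VLA4. In this class the 12 endothelial markers summed to 380 CPM with anti-VCAM1 and 2189 with anti-VLA4, and the 11 microglia markers to 4348 and 2824 CPM. On their own markers 23 of 56 and 36 of 80 cells kept the class name, and 27 and 32 were microglia-like. The part of these other cells in the ratios was not tested.

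Pericyte-like cells (127 and 207 cells, 873631 and 1410700 UMIs) had 74 of 4304 measurable genes, or 1.72%, past 1.5-fold higher and 57, or 1.32%, lower. None of 12 identity genes passed it (median 0.16), with Pdgfrb, the receptor that recruits pericytes to vessels, at 307 CPM with anti-VCAM1 and 364 with anti-VLA4. Of 12 contractile and matrix genes 3 were past it lower, Tagln, Acta2 and Tpm2, against 1.32% of all genes. The ratio of Tpm2 went from -0.98 to 0.29 without the 10 highest cells of each library. Acta2, smooth muscle actin, stood at 509 CPM with anti-VCAM1 and 43.2 with anti-VLA4 and Tagln, an actin-binding protein, at 402 CPM with anti-VCAM1 and 14.2 with anti-VLA4, with UMIs in 8 and 7 and 7 and 4 cells. Those are defining smooth muscle genes, and 5 cells with anti-VCAM1 and 1 with anti-VLA4 were smooth-muscle-like on their own markers. Mgp, an inhibitor of calcification, stood at 476 CPM with anti-VCAM1 and 1131 with anti-VLA4, a ratio of 1.25 (1.09 to 1.41), and Bgn, a matrix proteoglycan, at 101 CPM with anti-VCAM1 and 158 with anti-VLA4. As given above, endothelial markers exceeded pericyte markers in the class, and 77 and 129 of its cells were endothelial-like on their own markers.

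The targets differed in the class with the highest level, and border-macrophage-like cells held both. Vcam1 was highest in border-macrophage-like cells, at 345 CPM with anti-VCAM1 and 315 with anti-VLA4, a ratio of -0.13 (-0.47 to 0.21). Its UMIs there came from 19 of 56 and 18 of 80 cells, and 10 cells of each library held 91.3% and 92.6% of them. Microglia-like cells followed with anti-VLA4, and Vcam1 stood there at 30.02 CPM in the sham library, 56.1 in the isotype stroke library, 32.8 with anti-VCAM1 and 46.7 with anti-VLA4, a ratio of 0.50 (0.32 to 0.71), with UMIs in 8.02% and 8.10% of cells, and the ratio was 0.24 after thinning. In pericyte-like cells it stood at 75.5 CPM with anti-VCAM1 and 2.13 with anti-VLA4, from 66 UMIs in 7 cells and 3 UMIs in 2 cells, and in T-cell-like cells at 7.24 CPM with anti-VCAM1 and 2.31 with anti-VLA4 from 4 and 2 UMIs. Microglia-like and endothelial-like cells were neighbours in this order with anti-VCAM1, at 32.8 and 26.8 CPM. Itga4 was highest in T-cell-like cells, followed by border-macrophage-like cells at 155 CPM with anti-VCAM1 and 173 with anti-VLA4 and pericyte-like cells at 53.8 CPM with anti-VCAM1 and 67.3 with anti-VLA4. It was near the floor in endothelial-like cells, at 5.33 CPM with anti-VCAM1 and 5.41 with anti-VLA4, and in microglia-like cells, at 2.08 CPM with anti-VCAM1 and 2.09 with anti-VLA4. Itgb1 was broad, at 464 CPM with anti-VCAM1 and 453 with anti-VLA4 in endothelial-like, 234 CPM with anti-VCAM1 and 245 with anti-VLA4 in microglia-like and 643 CPM with anti-VCAM1 and 608 with anti-VLA4 in pericyte-like cells. The ratios of Itga4 and Itgb1 stayed inside 1.5-fold in all 5 classes.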

How the data were processed

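Each of the 4 deposited matrices holds unnormalized UMI counts of genes by barcodes. Per the file headers they come from Cell Ranger 7.0.1. The submitters' processing notes name Cell Ranger 6.0.0, Seurat 4.3.0.1 and the builds mm10 and GRCh38. Later steps used Python 3.11.15, scanpy 1.11.5 (with its Scrublet), leidenalg 0.10.2, scipy 1.17.1 and statsmodels 0.14.6. Groups came from the sample titles. The members and gene lists were chosen with earlier results of these data known.

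Cells under 500 UMIs or 200 genes, or over 10% mitochondrial UMIs, were dropped. With a doublet rate of 0.05 expected, Scrublet called 63 (1.33%) and 124 (1.96%) cells in the anti-VCAM1 and anti-VLA4 libraries, which were left out. Cells of all 4 libraries were clustered on 2000 variable genes, 30 components, 15 neighbours and Leiden resolution 1, without list, mitochondrial, ribosomal and haemoglobin genes. A cluster took a class name when at least 3 markers were found in 25% or more of its cells with a log2 fold of 1 or more, and stayed unnamed when its leading genes, or 5 or more markers, were those of another class. Part of this naming rule was settled after the clusters had been seen.

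Each class was summed within its library and its UMIs expressed as CPM. Genes needed 100 UMIs over both libraries, and log2 ratios carry a pseudocount of 1 CPM. Shares have exact Clopper-Pearson intervals, levels exact Poisson intervals, odds ratios exact conditional intervals and ratios conditional binomial intervals without the pseudocount, all at 95%. The limit for a count of 0 is 3 cells. No test or p-value was possible with 1 library per group. To compare shares of cells with a UMI, each cell was thinned to 1000 UMIs. The scripts were tested on simulated data.

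Named genes were Vcam1, Itga4 and Itgb1, the 10 highest and 10 lowest ratios in the endothelial-like and in the microglia-like class, the 5 highest and 5 lowest in other classes, and up to 3 members of each list. The extremes had at least 200 UMIs and 50 CPM, without mitochondrial, ribosomal and haemoglobin genes or any gene that another class held at more than 10 times the level. One gene that this rule names is not reported here. Other names, such as Cldn5, Igkc, Gzma or Cxcl10, come from the lists or were chosen after their values were seen. Alternatives changed the cell naming, filters, scaling, pseudocount, gene minimum, fold and cluster weights.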

Additional observations from a re-analysis of the deposited data

Results flagged for a closer look

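Vcam1 and Ier3 had ratios of opposite sign in the 2 largest classes, with counting intervals on opposite sides of 0. The log2 ratio of anti-VLA4 over anti-VCAM1 for Vcam1 was -0.41 in endothelial-like cells and 0.50 in microglia-like cells, neither past 1.5-fold. For Ier3, an immediate early gene that NF-kappaB also induces, it was 0.20 in endothelial-like cells and -0.83 in microglia-like cells, where it was past 1.5-fold lower. With 1 library per antibody, the difference between the classes was not tested for either gene.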

How the results depend on the processing

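No paired analysis was possible because each antibody has 1 library. For the same reason no replicate could be left out. Odds ratios of the shares moved little: 45 of 46 alternative values for 6 classes lay within the counting interval of the reported one, and the exception was the log2 odds ratio of microglia-like cells, -0.23 over named leukocytes. The pericyte-like shares themselves fell from 2.73% and 3.33% to 1.20% and 1.56% at clustering resolution 2. The log2 odds ratio of T-cell-like cells stayed between 0.44 and 0.65. Counts of genes past 1.5-fold depended on the depth required of a gene. Higher with anti-VLA4 in endothelial-like cells (16 as reported), they were 75 at a gene minimum of 20 UMIs, 3 at 500, 102 with no minimum, 33 and 5 with pseudocounts of 0.1 and 5 CPM, 3 at 2-fold, 46 under own-marker names of single cells, 33 after thinning and 31 by means of per-cell CPM. Lower there (10 as reported), they were 71, 0, 103, 33, 0 and 0 in the same order up to 2-fold, 16 with own-marker names, 16 with doublets kept, 34 by per-cell means and 16 without cluster 0. Higher in microglia-like cells (37), they were 178, 6, 248, 64, 14 and 6 in that order, 79 by per-cell means and 59 without cluster 2. Lower there (60), they were 188 at 20 UMIs, 15 at 500, 268 with no minimum, 23 with a pseudocount of 5 CPM, 34 with the same cluster weights and 3 at 2-fold. In T-cell-like cells the higher count (57) was 713, 1 and 3454 over the 3 gene minimums, 10 at 2-fold and 6 after thinning. The lower count (134) was 952, 7 and 3102, 68 at 2-fold, 7 after thinning, 29 with own-marker names and 29 with cells that had the same name by cluster and own markers. Vcam1 in endothelial-like cells came to -0.15 by per-cell means, and Itga4 in T-cell-like cells to 0.48 without the 10 highest cells of each library. Of 4319 values for named genes 14 changed sign, and of 869 list medians 5 did. With own-marker names H2-Aa came to -0.065 and H2-Eb1 to -0.26 in microglia-like cells. In T-cell-like cells Ctsb came to 0.037, Fcer1g to 1.23 and Ccl4 to 0.41, both with own-marker names and with cells of the same name by both routes. Without the 10 highest cells Lpl came to 0.067 in microglia-like cells and Gkn3 to 2.02 and Tpm2 to 0.29 in pericyte-like cells. After thinning, the MHC class II median came to -0.051 in microglia-like cells, the scavenger median to -0.11 and Gpr34 to 0.43 in border-macrophage-like cells, Ubxn1 to -0.020 in T-cell-like cells and Vwf to 0.49 in pericyte-like cells. The median of naive T cell genes came to -0.35 with doublets kept and to -0.019 with no gene minimum, and that of MHC class II genes in border-macrophage-like cells to -0.056 with the 2 libraries clustered alone. Where the construction of an alternative does not show it, the cause was not tested. The alternatives that removed the 10 highest cells or kept cells of the same name by both routes were chosen after seeing the data. Depth limits the classes with few cells most, since 2319 genes were measurable in T-cell-like and 1588 in border-macrophage-like cells against 10365 in endothelial-like cells.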

Other observations

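A few genes outside the lists and the tissue's main programmes also had high ratios in single classes. In the pericyte-like class the amino acid transporter Slc38a2 was at 112 CPM with anti-VCAM1 and 267 with anti-VLA4, a log2 ratio of 1.24 (0.92 to 1.58), with UMIs in 50 and 79 cells. Hspa2, a chaperone best known from testis, was at 71.0 and 122 CPM there, a ratio of 0.77 (0.35 to 1.22). In border-macrophage-like cells Pde7b, a phosphodiesterase, was at 135 and 354 CPM, a ratio of 1.38 (0.95 to 1.86), and App, the amyloid precursor, at 260 and 595 CPM, a ratio of 1.19 (0.87 to 1.53). The phosphodiesterase had UMIs in 22 and 32 cells. In that class the 12 endothelial markers summed to 380 CPM with anti-VCAM1 and 2189 with anti-VLA4, and their part in both ratios was not tested.

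Igkc in endothelial-like cells was at 149 CPM in the sham library, 66.3 in the isotype stroke library, 0.254 with anti-VCAM1 and 12.8 with anti-VLA4. In microglia-like cells it was at 7.31, 107, 0.198 and 11.1 CPM in the same order. Plasma-cell-like cells, which carried it at 331875 to 481538 CPM, numbered 3, 25, 0 and 6 in that order. These are values of single libraries, and no cause was tested.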
